A study of Homo sapiens with 6 samples.

Results

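The genes described here are 6 ligands of the epidermal growth factor (EGF) family, TGFA, AREG, EREG, HBEGF, BTC and EGF, the receptors EGFR, ERBB2 and ERBB3, and ERRFI1, an inhibitor of these receptors. They were found by symbol in a table whose unit is FPKM, that is, sequenced fragments divided by transcript length and by library size, where the 10 genes hold 11 of the 24000 gene entries because AREG is listed under 2 entries. PC-3, a human prostate cancer cell line that grows without androgen, had been implanted in the prostate of male athymic nude mice, which were 6 weeks old when obtained and lack T cells. Tumors of 3 vehicle-treated mice were compared with tumors of 3 mice given WCE by mouth, a standardized extract of the herb Wedelia chinensis. The labels give a treatment of 10 weeks for all 6 tumors, no dose and no genetic change in either group, and the study's methods describe cells carrying luciferase for imaging. All tumors derive from the same cell line, so the spread between them is that between tumors and not between patients.

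EGF-family ligands are made as membrane-anchored precursors and are released by metalloproteases. They bind EGFR, which pairs with itself or with ERBB2 or ERBB3 and signals through the RAS-ERK and PI3K-AKT pathways. ERBB2 has no known ligand of its own, ERBB3 has a weak kinase and binds neuregulins, and ERRFI1 (also called MIG6) is induced by receptor signaling and blocks the receptor kinase. In prostate tumors the pathway is known for growth signals that do not need androgen.

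Vehicle replicate 3 and WCE replicate 1 stood apart from the other libraries by being nearly the same. Over 1915 entries with a mean of at least 50 FPKM, their median absolute difference on the log2(FPKM + 1) scale was 0.028, against 0.095 to 0.25 in the other 14 pairs. Of the entries detected in WCE replicate 1, 0 were undetected in vehicle replicate 3, against 329 to 546 undetected in the other tumors. The files do not say whether the libraries are 2 tumors or 1 library under 2 labels, and this was not tested. In the second case the 3 against 3 tumors are not all independent, which touches each n, overlap and p below. Both were kept as labelled, and the members' results are given with and without them. The table holds no read counts. The steps of its low values put the depth of WCE replicate 1 at 25.0% of that of vehicle replicate 3 and the other tumors at 64.8% to 85.2%. The epithelial markers KRT8 and KRT18 were at 192 to 322 FPKM in every tumor and the prostate gene KLK3 was listed at 0.

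RefSeq promoter windows on GRCh38.p14 were matched for 9 of the 10 genes. The 250 bases before the start are shown for TGFA and EREG, because they are the ligands whose groups did not overlap, and for AREG, which lies next to EREG and whose groups did overlap. Capitals mark matches, on either strand, to the TATA box (TATAAA), the cAMP response element (TGACGTCA), the GC box (GGGCGG) or the NF-κB motif. AP-1 (TGANTCA) was also searched.
TGFA, chr2:70553827-70554076, minus strand, the more upstream of 2 listed starts: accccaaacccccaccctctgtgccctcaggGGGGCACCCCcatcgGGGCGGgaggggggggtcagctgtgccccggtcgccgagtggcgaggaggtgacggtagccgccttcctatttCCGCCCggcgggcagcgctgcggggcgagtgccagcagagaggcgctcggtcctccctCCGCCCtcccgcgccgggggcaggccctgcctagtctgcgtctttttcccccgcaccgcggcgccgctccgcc
EREG, chr4:74364895-74365144, plus strand: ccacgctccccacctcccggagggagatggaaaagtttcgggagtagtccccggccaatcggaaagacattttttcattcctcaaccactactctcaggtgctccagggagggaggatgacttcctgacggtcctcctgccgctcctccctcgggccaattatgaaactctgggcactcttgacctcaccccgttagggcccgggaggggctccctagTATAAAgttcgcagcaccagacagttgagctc
AREG, chr4:74444886-74445135, plus strand: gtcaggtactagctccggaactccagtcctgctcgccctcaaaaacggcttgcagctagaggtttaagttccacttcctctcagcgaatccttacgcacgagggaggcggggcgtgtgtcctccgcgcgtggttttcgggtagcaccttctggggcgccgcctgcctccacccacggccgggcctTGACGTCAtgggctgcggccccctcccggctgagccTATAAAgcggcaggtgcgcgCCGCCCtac

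The printed TGFA window held 3 GC boxes and 1 NF-κB match, where 42.6% of the 35116 RefSeq windows of this length held at least 1 GC box and 9.96% at least 1 NF-κB match. The window of the other TGFA start held none of the motifs searched and had a GC content of 64.0%. The EREG and AREG windows each held a TATA box, 32 and 29 bases before the start, found in 10.7% of windows. AREG alone of the 3 held a cAMP response element, found in 1.65% of windows, and none of the 3 held an AP-1 match, found in 6.57%. The GC content was 75.6% for the printed TGFA window, 58% for EREG and 65.2% for AREG. Neither motif of the TGFA window was particular to TGFA among the members. The BTC window held 2 NF-κB matches, 90 and 23 bases before the start. GC boxes also lay in the windows of AREG (1), HBEGF (5) and ERRFI1 (1) and in the first listed EGFR window (2). These matches describe the letters of the windows, and binding was not measured.

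ERRFI1 was by far the most abundant of these genes, with a median of 158 FPKM over the 6 tumors. FPKM is per length, so levels can be set side by side between genes. HBEGF at a median of 28.6 FPKM and ERBB2 at 28.4 FPKM came next, followed by EGFR at 17.2 FPKM and TGFA at 15.4 FPKM. The ranges of each of these 4 genes overlapped that of its neighbour in the order. ERBB3 was at 6.96 FPKM, below every value of TGFA and above every value of BTC at 4.47 FPKM. BTC and AREG, at 3.47 FPKM, overlapped, while EGF at 1.22 FPKM and EREG at 0.257 FPKM were each separate from the gene above them.

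**Figure D1:**
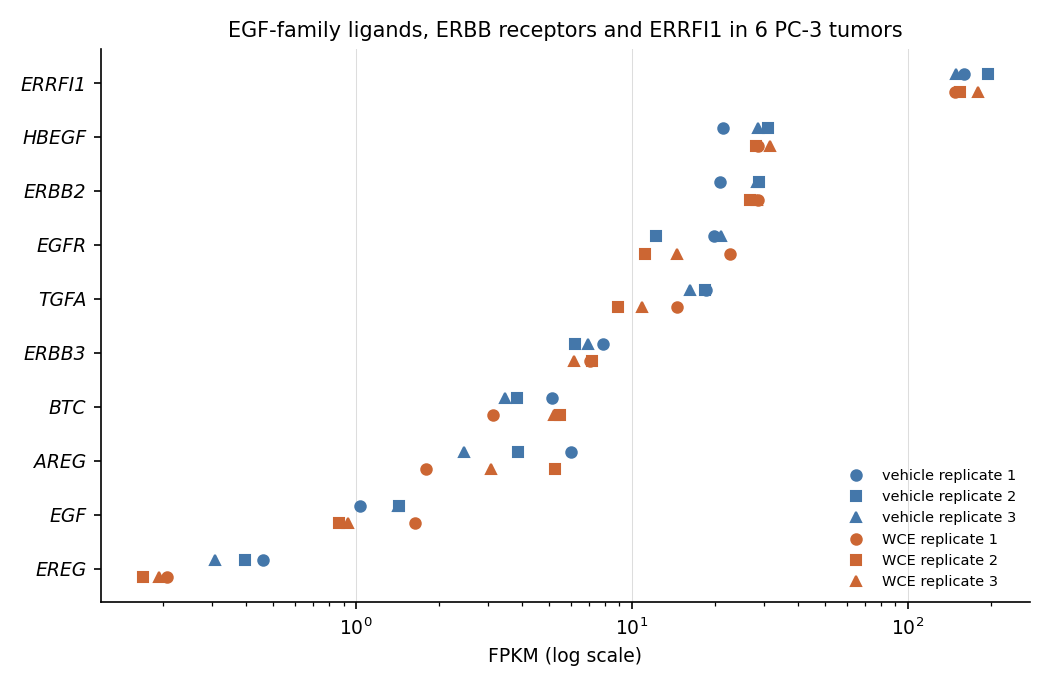
FPKM on a log scale for the 10 genes in each of the 6 tumors, ordered by mean, with vehicle in blue above WCE in orange and 1 marker shape per replicate number. ERRFI1 lies between 149 and 194 FPKM, above all others, and only TGFA and EREG show no overlap of the groups. The second entry of AREG, at 0 in 5 tumors, is not drawn.

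TGFA, which encodes transforming growth factor alpha, a ligand of EGFR, was lower in WCE-treated tumors. Its entry, on chromosome 2 from 70674412 to 70781147 in hg19, was at 18.5, 18.4 and 16.2 FPKM in vehicle replicates 1 to 3 and at 14.6, 8.87 and 10.9 FPKM in WCE replicates 1 to 3. Every WCE-treated tumor was thus below every vehicle-treated tumor, and the closest values were those of the nearly identical libraries, 16.2 and 14.6 FPKM. The mean was 17.7 ± 1.28 FPKM against 11.4 ± 2.90 FPKM (SD, n = 3 each), which is 35.4% lower. By limma the difference in log2(FPKM + 1) was −0.61 (95% interval −1.0 to −0.22, unadjusted p = 0.00725). The adjusted p over the 13287 entries with a mean of at least 0.5 FPKM was 0.623 by limma. An exact permutation test returned p = 0.1, and 3 against 3 allows no smaller value. Once the nearly identical libraries were both omitted, the difference was −0.85, with an unadjusted p = 0.00124 and an adjusted p = 0.173 by limma. In bulk tumor RNA, fewer cells that express a gene and less RNA per cell cannot be told apart.

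EREG, which encodes epiregulin, a ligand of EGFR and ERBB4, was the lowest of the ligands. Its values were 0.460, 0.395 and 0.309 FPKM with vehicle and 0.206, 0.169 and 0.193 FPKM with WCE, so the groups did not overlap. The WCE mean was 51.3% below the vehicle mean, 0.189 ± 0.0185 against 0.388 ± 0.0760 FPKM (SD, n = 3 each). EREG was under the filter on low values and was not among the 13287 entries tested. In a fit of all 24000 entries its difference in log2(FPKM + 1), which understates changes at such levels, was −0.22 (unadjusted p = 0.00478 and adjusted p = 0.873 by limma). An exact permutation test again returned p = 0.1. Vehicle replicate 3 and WCE replicate 1, at 0.309 and 0.206 FPKM, again held the lowest vehicle and the highest WCE value. Without both libraries the log2 difference was −0.27 (unadjusted p = 0.00483 by limma over all 24000 entries, of which 6.09% were lower at an unadjusted p under 0.05). The 24000 include entries at 0 in every tumor, which cannot be called and make this share smaller.

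AREG, which encodes amphiregulin, was variable within both groups. Its main entry was at 6.03, 3.87 and 2.46 FPKM with vehicle and at 1.79, 5.26 and 3.08 FPKM with WCE. The groups overlapped over nearly their whole range, and the log2 difference was −0.24 (95% interval −1.04 to 0.55, unadjusted p = 0.494 by limma). The direction turned without vehicle replicate 1, to 0.014, and without WCE replicate 1, to 0.041. The second AREG entry was listed at 0 in 5 tumors and at 0.112 FPKM in WCE replicate 3. It stands for a near-identical copy of the gene in hg19, and reads of AREG could have been split between the entries. With both entries summed the log2 difference was −0.23.

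HBEGF, which encodes heparin-binding EGF-like growth factor, was the most abundant ligand, at 21.4, 31.2 and 28.5 FPKM with vehicle and 28.7, 28.1 and 31.7 FPKM with WCE. Apart from the lower value of vehicle replicate 1 the tumors lay close together, with a log2 difference of 0.14 (95% interval −0.20 to 0.48, unadjusted p = 0.376 by limma). Without vehicle replicate 1 the difference was −0.017.

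BTC, which encodes betacellulin, was at 5.11, 3.84 and 3.47 FPKM with vehicle and 3.14, 5.48 and 5.21 FPKM with WCE. Its log2 difference was 0.11 (unadjusted p = 0.600 by limma), with the lowest value of all in WCE replicate 1. EGF, the ligand that names the family, was at 1.03, 1.42 and 1.41 FPKM with vehicle and 1.63, 0.866 and 0.938 FPKM with WCE. Its highest and lowest values were both in WCE-treated tumors, and the log2 difference was −0.11 (unadjusted p = 0.555 by limma). It ranged from −0.26 without WCE replicate 1 to −0.016 without WCE replicate 2.

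**Figure D2:**
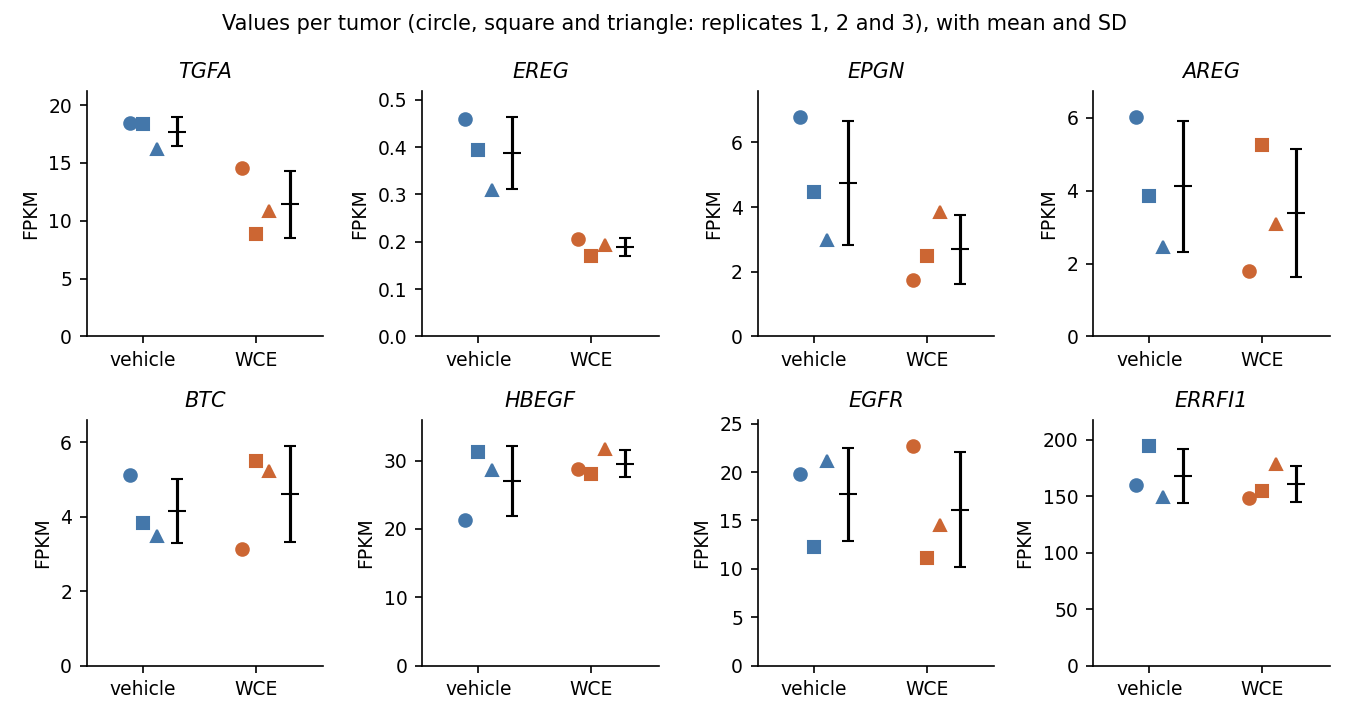
FPKM per tumor on linear axes from 0 for 8 genes, with the mean and SD of each group (n = 3) beside the points. TGFA and EREG show no overlap between vehicle-treated and WCE-treated tumors, while EPGN, AREG, BTC, HBEGF, EGFR and ERRFI1 overlap.

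EPGN, EREG, AREG and BTC lie near each other on chromosome 4, within 545679 bases from 75174204 to 75719882 in hg19. EPGN encodes epigen, another EGFR ligand, and was at 6.79, 4.47 and 2.99 FPKM with vehicle and 1.75, 2.49 and 3.84 FPKM with WCE. Its log2 difference was −0.62 (standard error 0.28, unadjusted p = 0.0604 by limma), and the groups overlapped. Without vehicle replicate 3 and WCE replicate 1 it was −0.67 (unadjusted p = 0.0408 and adjusted p = 0.254 by limma). In that fit 9.59% of all entries were lower at an unadjusted p under 0.05. Of the 4 neighbours, EREG alone had groups that did not overlap over all 6 tumors. Without those 2 libraries EPGN, lower with WCE, and BTC, higher with WCE, did not overlap either, and only AREG overlapped. BTC then had an unadjusted p = 0.217 by limma. Separation of 2 against 2 tumors often arises without an effect, and how many of all entries showed it was not counted. Whether the 4 neighbours differ in direction was not tested.

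Together the 6 ligands summed to 52.5, 59.1 and 52.4 FPKM with vehicle and 50.04, 48.7 and 52.1 FPKM with WCE. TGFA held 35.2%, 31.1% and 31.0% of this sum in vehicle-treated tumors and 29.1%, 18.2% and 20.8% in WCE-treated tumors. HBEGF held 40.7%, 52.7% and 54.4% in vehicle-treated and 57.3%, 57.6% and 60.9% in WCE-treated tumors. The TGFA share was thus lower and the HBEGF share higher in every WCE-treated tumor than in any vehicle-treated tumor, although HBEGF itself overlapped. The small EREG share was also lower, at 0.589% to 0.877% with vehicle and 0.347% to 0.411% with WCE. In each case the closest shares were those of the nearly identical vehicle replicate 3 and WCE replicate 1. Shares of a sum are tied to each other, and no test was made on them.

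**Figure D3:**
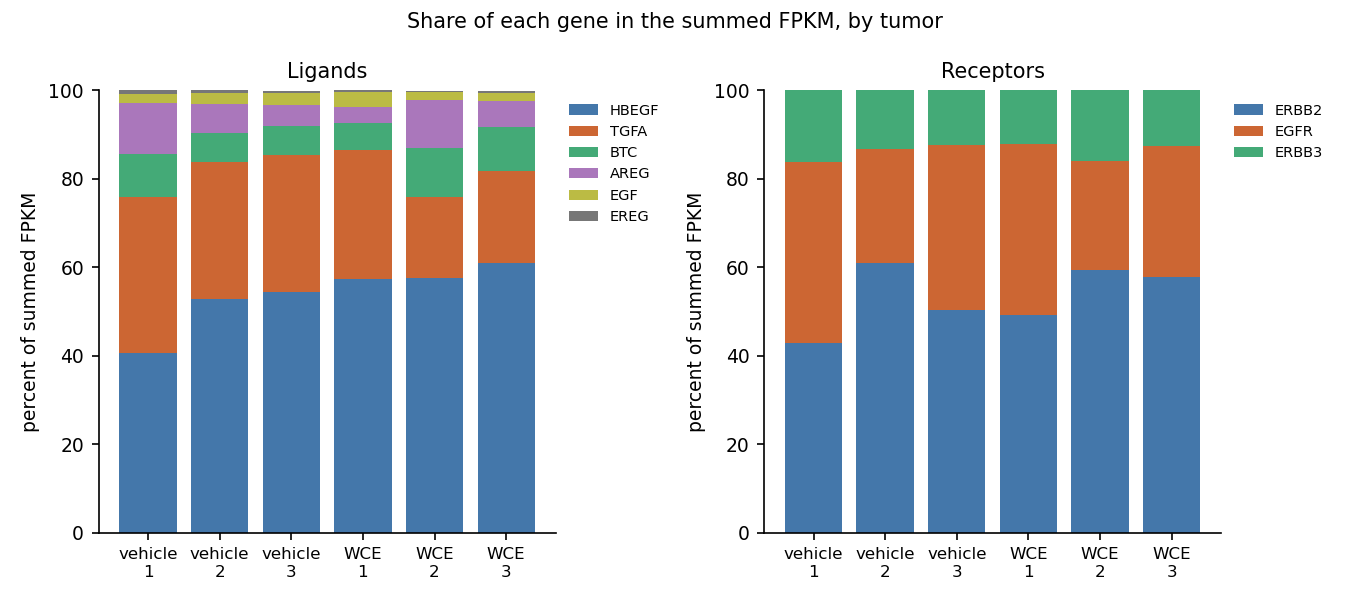
Stacked bars give the percent of summed FPKM held by each ligand (left) and each receptor (right) in each tumor. The TGFA segment is 31.0% to 35.2% in vehicle-treated and 18.2% to 29.1% in WCE-treated tumors, and the receptor segments show no such separation. The second AREG entry, 0.215% of the ligand sum in WCE replicate 3, is not drawn.

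The receptors did not separate by treatment. EGFR, on chromosome 7 from 55086725 to 55275031 in hg19, was at 19.8, 12.2 and 21.1 FPKM with vehicle and 22.7, 11.1 and 14.5 FPKM with WCE. High values occurred in vehicle replicates 1 and 3 and WCE replicate 1, and low values in both groups, so that the lowest and the highest tumor differed by 2.04 times. The log2 difference was −0.15 (95% interval −0.80 to 0.50, unadjusted p = 0.612 by limma), an interval that leaves room for a change of the size seen in TGFA. Without WCE replicate 2 it was 0.073.

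ERBB2, which shares its entry with the microRNA gene MIR4728, was at 20.8, 28.8 and 28.4 FPKM with vehicle and 28.7, 26.9 and 28.4 FPKM with WCE. Vehicle replicate 1 alone was low, as it was for HBEGF, and the log2 difference was 0.12 (95% interval −0.20 to 0.43, unadjusted p = 0.410 by limma). Without vehicle replicate 1 it was −0.028. ERBB3 varied little, at 6.99 ± 0.802 FPKM with vehicle and 6.79 ± 0.528 FPKM with WCE (SD, n = 3 each). Its log2 difference was −0.03, with a 95% interval of −0.30 to 0.24, and turned to 0.041 without vehicle replicate 1 and 0.023 without WCE replicate 3. The summed receptor level was 47.2 to 56.4 FPKM with vehicle and 45.2 to 58.4 FPKM with WCE.

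ERRFI1, the receptor inhibitor, was at 160, 194 and 149 FPKM with vehicle and 149, 155 and 179 FPKM with WCE. These ranges overlapped, and the log2 difference was −0.06 (95% interval −0.36 to 0.25, unadjusted p = 0.673 by limma). Its direction turned with quantile normalization, to 0.015, and without vehicle replicate 2, to 0.052.

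Among the 9 member entries tested, limma gave 1 (TGFA) an unadjusted p under 0.05. It was lower, as were 3.33% of all 13287 entries at that threshold, beside 7.10% in either direction. After adjustment 0 members were under 0.05, against 0.00753% of the table, or 1 entry. Of these 9, TGFA was also the 1 without overlap of the groups, against 6.40% of entries that were lower without overlap and 12.8% in either direction. With EREG counted, 2 of 11 member entries were lower without overlap, against 5.35% of the entries above 0 in any tumor (10.8% in either direction). In the fit of all 24000 entries TGFA and EREG were lower at an unadjusted p under 0.05, against 2.19% of entries (4.38% in either direction). Only 18536 of these 24000 were above 0 in any tumor, and the rest, which cannot be called, make these shares smaller. The members' median log2 difference was −0.06, beside −0.01 over all entries. Without vehicle replicate 3 and WCE replicate 1, TGFA was again the 1 of 9 with an unadjusted p under 0.05, when 9.59% of entries were lower at that threshold (18.4% in either direction) and 0.0376% passed adjustment. For the other ligands the log2 differences were then −0.21 for AREG, 0.20 for HBEGF, 0.22 for BTC and −0.22 for EGF, with unadjusted p = 0.217 to 0.484 by limma. The 2 remaining tumors of each group did not overlap for BTC, higher with WCE, or EGF, lower with WCE. With 2 against 2 tumors such a separation often arises without an effect, and its share over all entries was not counted. The differences were −0.27 for EGFR, 0.17 for ERBB2, −0.06 for ERBB3 and −0.08 for ERRFI1, with unadjusted p = 0.332 to 0.715 by limma.

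**Figure D4:**
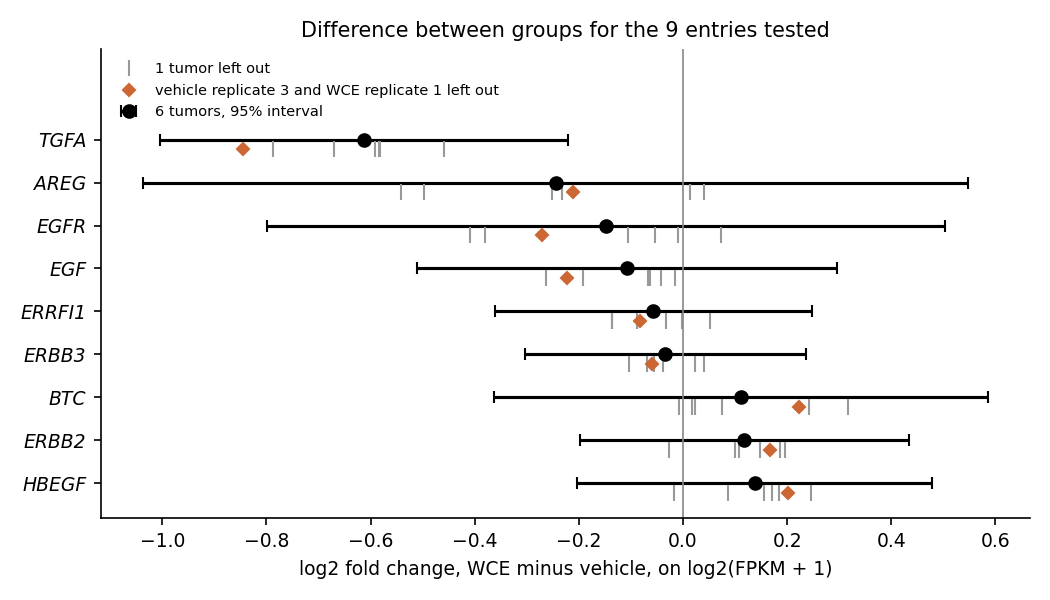
Difference in log2(FPKM + 1), WCE minus vehicle, for the 9 member entries tested, as black points with 95% intervals from limma. Grey ticks leave out 1 tumor at a time and orange diamonds leave out vehicle replicate 3 and WCE replicate 1. TGFA, at −0.61, is the 1 gene whose interval and whose ticks all lie below 0.

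Markers of tumor cells and of other cells were checked. Endothelial, leukocyte and fibroblast cells in these tumors come from the mouse host, so human entries do not measure them directly. The paper reports less staining of vessels in WCE-treated PC-3 tumors. It also reports fewer macrophages and myeloid-derived suppressor cells there by flow cytometry. Treatment in the paper's growth experiments was shorter than the 10 weeks that the labels give for these tumors. The epithelial genes EPCAM and CDH1 were lower in every WCE-treated tumor than in any vehicle-treated tumor, as TGFA was. Such a separation held for 6.40% of the 13287 entries tested. The closest values were those of the nearly identical vehicle replicate 3 and WCE replicate 1. They were 185 and 180 FPKM for EPCAM and 57.8 and 56.5 FPKM for CDH1. The log2 differences of EPCAM and CDH1 were −0.73 and −0.47 (unadjusted p = 0.00889 and 0.0253 by limma), while KRT8 and KRT18 overlapped. Over the 4 epithelial markers the summed level was 755 to 887 FPKM with vehicle and 703 to 754 FPKM with WCE. The 5 endothelial markers summed to 1.20 to 3.37 FPKM with vehicle and 3.21 to 7.60 FPKM with WCE, with KDR higher (log2 difference 1.14, unadjusted p = 0.0345 by limma) at 0.559, 1.59 and 5.12 FPKM in WCE replicates 1 to 3. PECAM1, the other endothelial marker tested, overlapped (log2 difference 0.14, unadjusted p = 0.613 by limma). The defining endothelial genes CDH5, TEK and VWF were under 0.1 FPKM in all tumors. The 6 leukocyte and myeloid markers summed to 25.6 to 41.4 and 40.4 to 44.5 FPKM, nearly all of it CD68, and PTPRC was under 0.7 FPKM in every tumor. The 6 fibroblast markers summed to 42.1 to 56.4 and 12.8 to 55.9 FPKM, mostly COL1A1 and COL3A1, with LUM lower (log2 difference −0.85, unadjusted p = 0.0308 by limma) though its groups overlapped, and DCN and PDGFRB under 0.2 FPKM. Mouse cells of the host can add reads to human entries, and the part of these values in the TGFA and EREG results was not tested.

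The rest of the family was low. NRG2, a neuregulin, was at 1.46, 2.32 and 2.10 FPKM with vehicle and 1.76, 4.22 and 3.27 FPKM with WCE, a log2 difference of 0.43 (unadjusted p = 0.117 by limma). Without vehicle replicate 3 and WCE replicate 1 the difference was 0.72 (unadjusted p = 0.0158 and adjusted p = 0.207 by limma). In that fit 8.84% of all entries were higher at an unadjusted p under 0.05. NRG4 differed by 0.04 on the log2 scale. ERBB4, a receptor for EREG and neuregulins, was at 0.0545 to 0.0659 FPKM with vehicle and 0.0091 to 0.0466 FPKM with WCE, without overlap. Of the entries above 0 in any tumor, 5.35% were lower without overlap. The closest ERBB4 values, 0.0545 and 0.0466 FPKM, were those of the nearly identical vehicle replicate 3 and WCE replicate 1. ERBB4, NRG1 and NRG3 stayed below 0.25 FPKM in every tumor, so that EGFR, ERBB2 and ERBB3 were the receptors measured above trace levels.

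In 5 lists of related genes limma gave 7 of 66 tested entries an unadjusted p under 0.05, 3 higher and 4 lower in WCE-treated tumors, and 0 had an adjusted one. That is 10.6% of them, beside 7.10% of all entries (3.78% higher and 3.33% lower), and their median log2 difference was 0.01. Among the genes for ligand release, 1 of 8 had such a p. This was RHBDF1, which encodes iRhom1, a cofactor of the sheddase ADAM17. It was at 7.63, 8.33 and 10.5 FPKM with vehicle and 10.6, 13.2 and 14.2 FPKM with WCE. Every WCE-treated tumor was above every vehicle-treated tumor, which held for 6.37% of all entries tested. The closest values, 10.5 and 10.6 FPKM, were those of the nearly identical vehicle replicate 3 and WCE replicate 1. The log2 difference of RHBDF1 was 0.48 (unadjusted p = 0.0134 by limma). ADAM10, a sheddase of EGF and betacellulin precursors, had a log2 difference of −0.32 (unadjusted p = 0.0897 by limma), and the more abundant ADAM15 and ADAM19 differed by 0.06 and −0.01.

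Among genes for receptor removal 2 of 17 had an unadjusted p under 0.05. CD2AP, an adaptor that binds the ubiquitin ligase CBL, was at 19.3, 20.3 and 17.0 FPKM with vehicle and 15.9, 10.8 and 11.1 FPKM with WCE, a log2 difference of −0.56 (unadjusted p = 0.00785 by limma). HGS, which sorts ubiquitinated receptors in endosomes, had a log2 difference of 0.31 (unadjusted p = 0.0314 by limma) with overlapping groups. The most abundant genes of this list, EPN1 and PTPN12, differed by 0.01 and −0.04.

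In the signal relay 2 of 22 entries had an unadjusted p under 0.05. HRAS, a RAS family member, differed by −0.30 and PLCG1, a phospholipase C bound by active EGFR, by 0.36 on the log2 scale (unadjusted p = 0.0463 and 0.0473 by limma). The groups overlapped in both. AKT1, a kinase of the PI3K pathway and among the most abundant of the list, differed by −0.05.

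Among genes that respond to ERK 2 of 16 tested entries had an unadjusted p under 0.05, both lower in WCE-treated tumors. IER3, an early response gene also induced by NF-κB, differed by −0.49 and DUSP6, a phosphatase of ERK, by −0.26 (unadjusted p = 0.0161 and 0.0450 by limma). FOSL1, an AP-1 subunit and the most abundant of the list, differed by 0.22 with an unadjusted p = 0.242 by limma. IER3 has 5 further entries, listed at 0 in all tumors. Omitting the nearly identical libraries, 16 of the 66 entries had an unadjusted p under 0.05, 11 higher and 5 lower, against 18.4% of all entries (8.84% higher and 9.59% lower).

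The profiles of EGFR and TGFA, the members with the largest spread over the 6 tumors among those with a mean of at least 5 FPKM, were compared with 9240 entries at that level. Likeness was the mean absolute difference between profiles of log2(FPKM + 1) centred on their mean, over 6 tumors of which 2 were nearly identical. The entries closest to EGFR were SYT7 (0.081), TCF7L1 (0.092) and MYL9 (0.10), where the median entry was at 0.36. SYT7, at 6.76, 4.73 and 7.40 FPKM with vehicle and 7.67, 4.10 and 5.03 FPKM with WCE, was high in the same 3 tumors as EGFR. The entries closest to TGFA were ESF1, CD2AP and CHEK2, each at 0.062, where the median entry was at 0.33. ESF1 was at 25.2, 24.5 and 22.2 FPKM with vehicle and 20.5, 13.8 and 13.4 FPKM with WCE.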

How the data were processed

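RNA of 6 PC-3 xenograft tumors was sequenced from stranded mRNA libraries. The authors deposited FPKM values per gene entry, 1 column per tumor, and the submitters' processing notes name TopHat2 2.0.13, Cufflinks, hg19 and mm10 with no roles. The annotation, the use of strand in counting and any scaling between tumors are not given in the sources used here. Each column name was found in the description of 1 tumor, and all columns were used. Starts of loci count from 0 in the table and are printed counted from 1.

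Entries averaging 0.5 FPKM or more (13287 of 24000) were kept and put on the scale log2(FPKM + 1). Their 2 groups were tested by limma (version 3.58.1, R version 4.3.3), two-sided, with a mean-variance trend and Benjamini-Hochberg adjustment over all entries at a threshold of 0.05. Exact permutation tests were two-sided. The fit was tested on simulated data. Tables and figures were made with Python 3.11.15, numpy 2.4.6, pandas 2.3.3 and matplotlib 3.10.9. Relative depth is the commonest ratio between low values of tumor pairs. The depth in reads is unknown and intervals for counting error could not be given.

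The members and lists were chosen with earlier results of these data known. All members were named, with all other EGF-family genes, and in each other list the 2 entries with the lowest p and the 2 with the highest mean, except 1 entry of the signal relay list that is not reported here. The fit without the filter for EREG was chosen after its values were seen, and SYT7 and ESF1 are described as the closest entries. The alternatives were the pseudocount, the filter, scaling between tumors, the trend, tumor weights, a replicate block, tumors left out and AREG entries summed.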

Additional observations from a re-analysis of the deposited data

How the results depend on the processing

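TGFA was lower with an unadjusted p under 0.05 by limma in all 15 alternatives run (−0.79 to −0.46 with 1 tumor left out), and EREG in all 14 run without the filter, chosen after the data were seen, where a pseudocount of 0.1 gave −0.75. A member count of 1 was found in each alternative except no filter on low values, which gave 2 (TGFA and EREG), with 0 entries of the whole table at an adjusted p under 0.05, beside 1051 at an unadjusted one. Over all entries the adjusted count of 1 became 5 without vehicle replicate 3 and WCE replicate 1, and 1 to 7 with 1 tumor left out. The unadjusted count of 944 became 3201 with array weights and 2449 without that pair. It was 2033 without WCE replicate 1, 1771 without vehicle replicate 3, and 219 to 423 without any other tumor. The count of 7 in the lists of related genes became 4 without the mean-variance trend, 16 with array weights, 16 without the pair, 15 without WCE replicate 1, 12 without vehicle replicate 3, and 2 or 3 without any other tumor. The cause was not tested. When no filter was combined with 1 tumor left out, TGFA was not under 0.05 when the tumor omitted was vehicle replicate 1 or 2, or WCE replicate 3.

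Leaving out 1 tumor turned the direction of AREG (−0.54 to 0.041), HBEGF (−0.017 to 0.25), BTC (−0.0069 to 0.32), EGFR (−0.41 to 0.073), ERBB2 (−0.028 to 0.20), ERBB3 (−0.10 to 0.041) and ERRFI1 (−0.14 to 0.052), and quantile normalization that of ERRFI1 (0.015). EGF kept its direction (−0.26 to −0.016). Equal replicate numbers do not mark the same mouse. The deviations of such tumors from their group's mean correlated at −0.24, 0.16 and −0.093, so the numbers were not taken as pairs. The replicate block left TGFA at −0.61 (unadjusted p = 0.0102 by limma), with 1049 entries at an unadjusted p under 0.05, and changed the call of no member.

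Groups of 3 are too small to test a tumor for standing apart from its group, and WCE replicate 1, with the least depth, is the least precise for low genes such as EREG.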
